A study of Bos taurus with 31 samples.

Results

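In 7 of the 16 lactating libraries of this study of bovine mammary epithelium, transcripts of the main milk proteins made up under 10% of all counts, and those 7 libraries are compared here with the virgin libraries of the same cows. The study sequenced poly-A RNA from mammary epithelial organoids, clumps of epithelium obtained by digesting gland biopsies with enzymes and washing away most single cells. Of 16 dairy cows, 15 gave a library at both stages. All 14 libraries used here came from animals L478, L490, L504, L531, L538, L581 and L615, each biopsied once as a virgin at 14 months of age and once during lactation, at 40 to 60 days. No agent was given and no allele differed by design between the groups, and the organoids were stored for RNA directly after washing. Library names join V (virgin) or L (lactating) to the cow's number, and an animal is called here by its lactating library: animal L490 gave L490 and V490. The lactating biopsy always came later in life and after calving, so an effect of stage and one of age, parity or sampling time cannot be told apart.

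Members were chosen on the measured share of counts in 6 genes: the caseins CSN1S1, CSN1S2, CSN2 and CSN3, the lactose synthase subunit LALBA (alpha-lactalbumin) and the whey protein gene PAEP (beta-lactoglobulin). Their levels, and how the 7 animals differ from the rest in milk transcripts, are therefore a description of the choice and carry no test. Other secretory genes that go with milk transcripts are not free of that choice either. The question is which changes between stages are present in animals whose lactating library holds few milk transcripts.

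As background, the virgin gland is a branched ductal tree whose luminal cells include cells that sense oestrogen and progesterone and signal to their neighbours. Pregnancy and prolactin, acting through JAK2 and STAT5 and with the transcription factor ELF5, turn luminal progenitors into milk-secreting alveolar cells. Those cells take up glucose and fatty acids, make caseins, lactose and fat, and shed fat as globules wrapped in membrane. When milk removal stops, LIF signals through STAT3 and the gland begins to involute, with acute phase genes and immune cells rising, as known mainly from the mouse.

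The milk transcript share ran from 0.150% in L538 to 6.88% in L490. L478 held 0.362%, L531 3.40%, L581 3.44%, L504 5.03% and L615 5.88%. The nearest library outside the limit was L595 at 16.8%, and the other 8 paired animals reached 38.6%. Virgin libraries of the 7 animals held 0.0241% to 0.123%, with V490 the highest. Every lactating member was thus above the virgin library of its own animal, and also above all 7 virgin libraries of these animals. Among the virgin libraries of the other animals, however, V509 held 0.440%, above both L538 and L478. The composition differed too: in L538 and L478, CSN3 alone held 0.101% and 0.242% of counts, most of their milk share, as it did in the virgin libraries of the 7 animals other than V490. In L490 the larger parts were CSN2 at 2.38% and CSN1S1 at 2.08%, with CSN3 at 1.13%. L538 and L478 therefore stand apart from the other 5, and each count that leads a paragraph was also made without them. With every repeated locus counted once, L490 held 11.2% and would fall outside the limit.

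**Figure D1:**
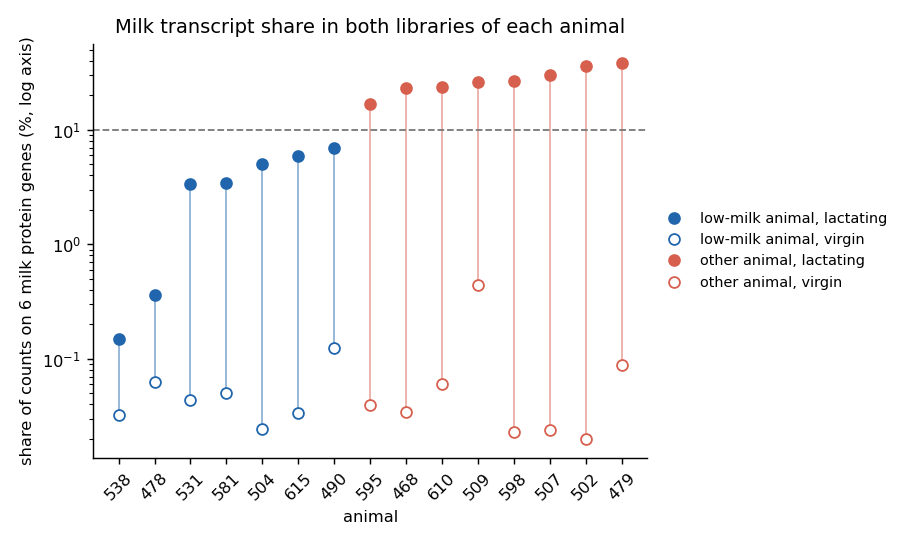
Share of counts on the 6 milk protein genes (percent, log axis) in the virgin (open) and lactating (filled) library of each of 15 animals, ordered by the lactating value; the dashed line is the 10% limit of the rule. The 7 low-milk animals (blue) lie between 0.150% and 6.88% in lactation, and the others (orange) at 16.8% or more.

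Total counts were 32373541 to 72138358 in the 7 lactating and 21590725 to 40103837 in the 7 virgin libraries. Of 13204 rows tested with edgeR's quasi-likelihood test and animal as a block, 2296 (17.4%) were higher and 2218 (16.8%) lower in lactation at a Benjamini-Hochberg adjusted p under 0.05, together 34.2%. A change over 2-fold was shown for 573 rows (4.34%) upward and 152 (1.15%) downward. The lactating libraries all lay above the virgin ones for 697 rows (5.28%) and all below for 569 (4.31%), and all 7 pairs rose for 1723 rows (13.0%) and fell for 1652 (12.5%). Of all rows called, 50.9% were higher, a split that became 35.4% without TMM scaling, which moved the median log2 fold change over all rows from -0.02 to -0.20. Without L490 and V490 the count over 2-fold higher was 364, and without L504 and V504 the count over 2-fold lower was 82. Leaving out animals L478 and L538 gave 1861 higher and 1330 lower. In the 8 other animals, fitted separately, 2878 of 13009 rows (22.1%) were higher and 2666 (20.5%) lower. The 17.4% and 16.8% are the background against which the gene lists below are read, and the median over all rows is the level against which their medians stand. Unless stated otherwise, levels are counts scaled to a common TMM-adjusted library size (CPM), given as the lowest, median and highest of the 7 libraries of a stage, and fold changes are log2 values ± SE, lactating minus virgin.

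Milk-related transcripts outside the rule rose even in these animals. Of 11 further tested genes of the milk protein list, 7 rose and none fell. GLYCAM1, a mucin-like whey protein, was at 0, 0 and 9.58 CPM in virgin and at 10.5, 633 and 1101 CPM in lactating libraries, so the stages did not overlap. Its fitted change was 12.26 ± 1.25 (adjusted p = 0.000195), a value that depends on virgin levels near 0. MFGE8 (lactadherin), a coat protein of the fat globule, was at 50.5, 64.4 and 100.0 CPM in virgin and 162, 219 and 286 CPM in lactating libraries, again without overlap. It rose by 1.63 ± 0.15 (adjusted p = 0.000147) against 3.82 ± 0.19 in the other animals, and all 7 animals' own changes (1.31 to 2.12) lay below all 8 of the others (3.37 to 4.26). LPO, the antibacterial enzyme lactoperoxidase, changed by 4.40 ± 1.19 (adjusted p = 0.0163), was higher in 5 of 7 pairs, and lost its call when animal L490, L504 or L581 was left out, its adjusted p running from 3.23e-06 to 0.0568 over 19 alternatives. PIGR, the receptor that carries antibodies into milk, was called higher in the other animals (2.25 ± 0.32) and had a change of -0.09 ± 0.49 here (adjusted p = 0.908).

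Of 31 tested genes of milk fat synthesis and secretion, 18 rose and 2 fell, with a median log2 fold change of 1.25, and 25 rose and 2 fell in the other animals, with a median of 2.39. MUC1, a mucin of the apical membrane, stood at 0.226, 0.544 and 1.31 CPM in virgin and 10.7, 24.6 and 50.9 CPM in lactating libraries. It rose by 5.33 ± 0.28 (adjusted p = 8.1e-06) in all 7 animals, the 2 lowest in milk transcripts included (4.17 in animal L478 and 4.74 in animal L538). BTN1A1 (butyrophilin), which binds the lipid droplet to that membrane, ran from 0 through 0.343 to 3.89 CPM in virgin and from 0.421 through 37.2 to 106 CPM in lactating libraries, with overlap. Its change was 6.41 ± 0.84 (adjusted p = 0.000518) and varied widely between animals, from 1.97 in animal L478 to 9.49 in animal L581. FABP3, a carrier of fatty acids in the cell, rose by 5.40 ± 0.52 (adjusted p = 0.000185) against 8.97 ± 0.49, and was counted on a locus 8.17 times its RefSeq span, so reads of neighbouring genes may be joined. PLIN2, the coat protein of lipid droplets, rose from a virgin median of 140.4 to a lactating median of 525 CPM with no overlap of the stages. Its change of 1.87 ± 0.20 (adjusted p = 0.000215) stood beside 1.63 ± 0.20 in the other animals.

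LPL, which releases fatty acids from blood lipids, rose by 3.26 ± 0.43 and CD36, a fatty acid transporter, by 2.14 ± 0.24, both in 7 of 7 pairs (adjusted p = 0.000564 and 0.000271). XDH, which holds butyrophilin at the membrane, rose by 1.53 ± 0.27 (adjusted p = 0.00193), and ACSL1, a ligase that primes long-chain fatty acids for use, by 1.42 ± 0.15 (adjusted p = 0.0002). The latter was at 75.4 to 127 CPM in lactating and 26.1 to 53.0 CPM in virgin libraries. AGPAT1, which adds the second fatty acid to glycerol, was called higher at 1.25 ± 0.21 (adjusted p = 0.0015). ACSS2, which activates acetate for fatty acid synthesis, and FADS1 and ELOVL1, a desaturase and an elongase, were called higher at 1.44, 1.04 and 0.79 (adjusted p = 0.0235, 0.0248 and 0.0378).

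FASN, the enzyme that builds fatty acids from acetyl units, had levels of 47.2, 121 and 388 CPM in virgin and 30.4, 103 and 156 CPM in lactating libraries, and the stages overlapped. The change was -0.69 ± 0.37 (adjusted p = 0.176), against 2.41 ± 0.28 in the other animals, where all 8 rose (1.05 to 3.85). The 7 animals ran from -2.88 in animal L478 to 0.70 in animal L615, none of them reaching the lowest of the 8. LPIN1 (lipin 1), which makes the diacylglycerol used for triglycerides, behaved likewise, with a virgin median of 58.3 and a lactating median of 58.9 CPM. Its changes were -0.20 ± 0.35 here (adjusted p = 0.69) and 2.53 ± 0.26 in the others, with ranges of -1.75 to 1.25 and 1.48 to 3.74 that do not meet. GPAM, which adds the first fatty acid to glycerol, changed by 0.14 ± 0.65 (adjusted p = 0.886) against 4.23 ± 0.49. ACACA, the committing enzyme of fatty acid synthesis, was called lower here (-0.51 ± 0.17, adjusted p = 0.0392) and higher in the others (1.5 ± 0.21, adjusted p = 6.79e-05). Its call here was lost under 11 of 19 alternatives, animal L478 left out being one, with adjusted p from 0.0127 to 0.261 over all 19. The fit without animal L490 is counted more than once among those 11. SCD, the desaturase, was called higher at 1.93 ± 0.63 (adjusted p = 0.0365), and this was lost when animal L490, L504, L531, L581 or L615 was left out (adjusted p from 0.0014 to 0.0982 over 19 alternatives). ACLY, which supplies acetyl units from citrate, fell by 0.94 on the log2 scale here and by 1.18 in the others, as background a step that ruminants are known to use little.

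**Figure D2:**
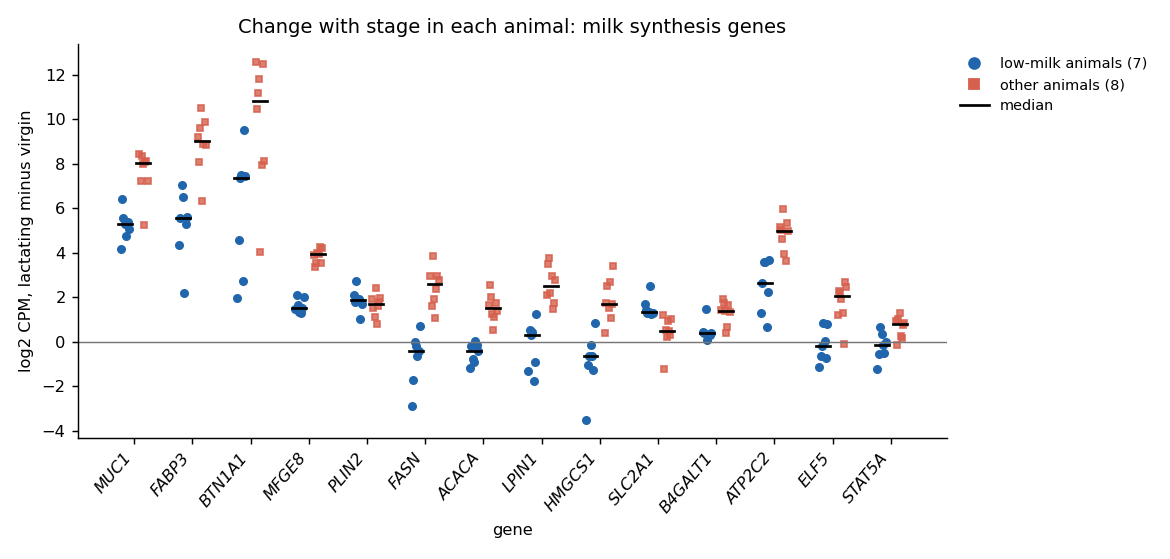
Change of log2 CPM from the virgin to the lactating library in each low-milk animal (blue circles, 7) and each other animal (orange squares, 8) for 14 milk synthesis genes; black bars are medians. MUC1 is above 0 in all animals, whereas FASN, ACACA and LPIN1 run from -2.88 to 1.25 in the low-milk animals and lie above 0 in all others.

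Cholesterol synthesis gave 0 genes higher and 5 lower of 23 tested, with a median of -0.29. The share that fell was near the 16.8% of all rows, while the absence of rises stood against 17.4%. The other animals had 13 higher and 2 lower and a median of 0.61. The median of -0.29 became -0.05 without animal L478, and -0.04 without L478 and L538. Among those that fell were MVD, DHCR7 and NSDHL, all enzymes of the pathway, and SCAP, the sterol-sensing escort of the SREBP transcription factors. SCAP went from 26.7, 44.4 and 59.6 CPM in virgin to 16.6, 21.4 and 26.5 CPM in lactating libraries, just without overlap, and fell by 0.95 on the log2 scale (adjusted p = 0.00262). HMGCS1, an early step of the pathway, was at 31.4 to 255 CPM in virgin and 20.4 to 83.2 CPM in lactating libraries. The change was -0.85 ± 0.40 (adjusted p = 0.125; called lower without TMM scaling), lowest in animal L478 at -3.50 and positive only in animal L615 at 0.82, against 1.85 ± 0.29 in the others. The count of 5 became 9 without TMM scaling and 3 without animals L478 and L531, whose virgin library titles carry a letter, DHCR7 being among those lost. SREBF1, the regulator of lipid synthesis, changed by 0.18 ± 0.17 (adjusted p = 0.435) against 1.51 ± 0.26.

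Of 16 tested genes of lactose synthesis and glucose entry, 4 rose and none fell, with a median of 0.40. The glucose transporters SLC2A8 and SLC5A1 did not pass (adjusted p = 0.652 and 0.38), and SLC2A1 and SLC2A3 did. SLC2A1 (GLUT1), the main glucose transporter of the gland, was at 337, 483 and 1015 CPM in virgin and 816, 1282 and 3243 CPM in lactating libraries. Only V478, at 1015 CPM, reached into the lactating range. The change was 1.54 ± 0.20 (adjusted p = 0.000486), and each of the 7 animals' changes (1.24 to 2.52) was above all of those in the other 8 (-1.22 to 1.18), whose fit gave 0.43 ± 0.24 (adjusted p = 0.162). SLC2A3, a glucose transporter, rose by 2.00 ± 0.45 (adjusted p = 0.00702). B4GALT1, the enzyme that joins with alpha-lactalbumin to make lactose, had a change of 0.48 ± 0.18, higher in 7 of 7 pairs but short of the threshold (adjusted p = 0.0668). It passed without the animal block and with DESeq2 (adjusted p from 0.0235 to 0.289 over 19 alternatives), and its change was 1.3 ± 0.20 in the others.

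Transport of minerals showed 8 genes higher and 2 lower of 18. ATP2C2, a calcium pump of the secretory pathway, was at 2.04, 6.14 and 9.31 CPM in virgin and 9.67, 29.0 and 88.5 CPM in lactating libraries, just without overlap. It rose by 2.55 ± 0.39 (adjusted p = 0.00108), from 0.67 in animal L538 to 3.69 in animal L615, against 4.82 ± 0.27 in the others. ATP2A2, the calcium pump of the endoplasmic reticulum, rose by 1.89 ± 0.31 (adjusted p = 0.00159) against 0.77 ± 0.17, and the zinc exporter SLC30A4 by 1.61 ± 0.19 against 1.65 ± 0.19. STC2 (stanniocalcin 2), a secreted glycoprotein, fell by 3.81 on the log2 scale. Among 17 tested amino acid transporters SLC38A3, SLC7A4 and SLC7A7 (3) rose and SLC38A1 and SLC1A5 (2) fell, a share close to the background. SLC38A1, a glutamine transporter, went from a virgin median of 131 to a lactating median of 39.9 CPM and fell by 1.58 on the log2 scale (adjusted p = 0.00113).

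No rise was called for ELF5, STAT5A, STAT5B or PRLR, the regulators of milk genes named above. Among 21 tested genes that act in signalling by prolactin and growth hormone, 5 passed upward and 2 downward. ELF5, the alveolar transcription factor, was at 44.4, 213 and 359 CPM in virgin and 46.0, 133 and 233 CPM in lactating libraries, with wide overlap. It changed by -0.15 ± 0.25 (adjusted p = 0.681; from -1.14 in animal L478 to 0.83 in animal L531), and was called higher at 1.74 ± 0.28 in the others, although its locus spans 3.57 times the RefSeq gene. STAT5A and STAT5B, which carry the prolactin signal, changed by -0.20 ± 0.21 and -0.15 ± 0.15, and the prolactin receptor PRLR by -0.51 ± 0.34, none of which passed the test (adjusted p = 0.497, 0.449 and 0.275). GHR, the growth hormone receptor, fell in 7 of 7 pairs, from 47.1, 72.4 and 86.2 CPM to 18.9, 26.2 and 28.5 CPM without overlap, by 1.46 on the log2 scale (adjusted p = 0.000178). IRS1, the adaptor of insulin and IGF receptors, rose by 2.03 ± 0.31 (adjusted p = 0.00105) in all 7, from 0.30 in animal L531 to 3.0 in animal L478. SOCS1, a feedback inhibitor of cytokine receptors, rose by 2.04 ± 0.28 (adjusted p = 0.000637). In the insulin-like growth factor axis 7 of 12 tested genes rose, among them the binding protein IGFBP5 (1.09 ± 0.26) and the scavenging receptor IGF2R (1.02 ± 0.19). That count was 4 without animal L490, L531 or L615, and 3 without L478 and L531, where IGFBP5 lost its call (adjusted p = 0.0593).

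Of 18 tested members of the oestrogen and progesterone sensing list 8 fell and 4 rose, with a median of -0.58, and 8 fell and 4 rose in the other animals with a median of -0.61. GREB1, a direct oestrogen receptor target, was at 16.8, 39.1 and 101 CPM in virgin and 0.332, 0.634 and 3.88 CPM in lactating libraries, far from overlap. It had the largest fall among the genes named by rule, -5.50 ± 0.26 (adjusted p = 5.06e-06), seen in all 7 animals between -6.30 and -4.69, beside -5.62 ± 0.48 in the others. ESR1, the oestrogen receptor itself, was at 17.9, 66.0 and 294 CPM in virgin and 7.23, 14.6 and 21.6 CPM in lactating libraries, and animal L615 alone did not fall (0.27). Its change was -2.21 ± 0.50 (adjusted p = 0.00725). FOXA1, which opens chromatin for that receptor, fell by 1.46 on the log2 scale (adjusted p = 0.0125), a call lost without animals L478 and L531 (adjusted p from 0.000172 to 0.0547 over 19 alternatives). MYB, an oestrogen-responsive transcription factor, went from 7.99, 16.4 and 32.3 CPM to 1.79, 3.82 and 5.21 CPM and fell by 2.18 on the log2 scale (adjusted p = 0.00087). AREG (amphiregulin), the EGF family ligand that passes the oestrogen signal on, fell by 2.13 on the log2 scale (adjusted p = 0.00357) in 7 of 7 pairs. EREG and NRG1, ligands of the same family, fell by 1.81 and 1.78 on that scale, and in all 4 of 11 tested EGF family genes fell and 2 rose. In the sensing list the 4 that rose were TFF3, a secreted trefoil peptide (3.63 ± 0.44, on a locus 3.18 times its RefSeq span), RERG, a small GTPase (3.07 ± 0.51), CXCL12, a chemokine (2.52 ± 0.38), and IGFBP4, a binding protein of insulin-like growth factors (1.23 ± 0.28).

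Among the other steep falls were SORCS1, a sorting receptor (-5.07 ± 0.34), SLC44A4, a choline-like transporter (-4.76 ± 0.49), and KCNE3, a potassium channel subunit (-3.35 ± 0.29). Their lactating levels were at most 2.35, 3.67 and 17.9 CPM, and their virgin levels at least 7.05, 25.4 and 32.7 CPM. SORCS1 and SLC44A4 had changes of -5.62 ± 0.54 and -5.48 ± 0.52 in the other animals. CA4, a carbonic anhydrase, fell from 3.85, 19.1 and 56.2 CPM to 0.195, 0.829 and 1.16 CPM, by 4.48 on the log2 scale (adjusted p = 0.000248), beside -1.26 ± 0.42 in the others.

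Few cell cycle genes rose, and the share that fell was close to the 16.8% of all rows. Of 31 tested, 1 rose and 5 fell, with a median of -0.20, against 3 and 14 in the other animals with a median of -0.73. CCND1 (cyclin D1) was at 45.4, 69.0 and 122 CPM in virgin and 21.0, 31.0 and 40.6 CPM in lactating libraries, and fell by 1.27 on the log2 scale (adjusted p = 0.00269) in all 7. PLK1, a mitotic kinase, fell by 0.78 on that scale, and PCNA, the replication clamp, rose by 0.82 ± 0.18, a call lost without animals L478 and L531 (adjusted p = 0.0567). TOP2A, a marker of dividing cells, changed by -0.68 ± 0.33 (adjusted p = 0.136), up in animals L478 and L490 and down in the other 5. The 5 falls were 2 without animal L504 or L581, 3 without animal L478, L538 or L615, 3 without the animal block and 8 without TMM scaling.

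Epithelial identity genes were close to the background. Of 22 tested luminal genes 3 rose and 3 fell, and of 23 basal genes 4 rose and 3 fell. KRT18, a luminal keratin, was at 64.1, 305 and 1319.8 CPM in virgin and 39.9, 97.4 and 147 CPM in lactating libraries. Its change of -1.47 ± 0.60 did not pass (adjusted p = 0.0808, and 0.0137 to 0.207 over 19 alternatives, with a call among others without the animal block), and ranged from -3.64 in animal L581 to 0.81 in animal L615. KRT8, its partner keratin, changed by -0.83 ± 0.43 and passed only without the block or without TMM scaling (adjusted p from 0.0461 to 0.349 over 19 alternatives). KRT14, a basal keratin, changed by -0.79 ± 0.41 (adjusted p = 0.167; called lower without the block or without TMM scaling), and was counted on the same locus as KRT17. KIT, a receptor found on luminal progenitors, was called higher at 0.93 ± 0.23, but not without animals L478 and L531 (adjusted p = 0.0504). PROM1, a luminal surface protein, rose by 1.21 ± 0.17. SNAI2, a basal transcription factor, rose by 1.43 ± 0.27, and KRT5, a basal keratin on a locus 19.5 times its RefSeq span, fell by 1.36 on the log2 scale. The 4 basal rises were 2 without animal L478, L490, L531 or L615 and without TMM scaling, and the 3 falls were 5 without the block or TMM scaling. Tight junction genes gave 5 falls and 1 rise of 18, MARVELD2 (tricellulin) falling by 0.94 on the log2 scale. The rise was CLDN5, which endothelium uses. Without animal L490, L504 or L531 that count of falls was 2, and without animal L478 or L581 it was 3.

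Of 26 secretory traffic genes 2 rose and 7 fell, and of 26 endoplasmic reticulum genes 4 rose and 3 fell. ARF4, a small GTPase of the Golgi, rose by 0.84 ± 0.15 (adjusted p = 0.00251), and HYOU1, a chaperone, fell by 0.97 on the log2 scale (adjusted p = 0.00996). The traffic falls depended on single animals, with 2 left without animal L504 or L531, 3 without L490 or L615, 4 without L581 and 1 without L478 and L531, and with 11 without TMM scaling. The 2 traffic rises were 4 without L581. The 3 endoplasmic reticulum falls were 1 without L490, L504 or L531, 2 without L478, L581 or L615, 5 without L538, 1 with each locus counted once and 9 without TMM scaling. In the respiratory chain and citrate cycle 3 of 26 rose and 4 fell. IDH3A, a citrate cycle enzyme, was at 150.1, 193 and 286 CPM in virgin and 40.9, 69.6 and 86.5 CPM in lactating libraries and fell by 1.59 on the log2 scale (adjusted p = 0.000564). PDK4, which turns off pyruvate dehydrogenase, rose by 1.67 ± 0.29 (adjusted p = 0.00189). Those 4 falls became 1 without animal L478 or L490 and 2 without any of L504, L531, L581 and L615, and the rises became 5 without L581. None of 38 cytosolic ribosomal protein genes was called in the fit as reported, with a median of -0.27. Without TMM scaling 9 were called lower, and 2 were without the animal block, with DESeq2 or in 1 fit over all animals.

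Of 28 tested genes of the acute phase and involution list 18 rose and 1 fell, with a median of 1.04, and in the others 13 rose and 1 fell with a median of 0.77. LIF, the cytokine, was at 39.6, 87.1 and 184 CPM in virgin and 275, 607 and 774 CPM in lactating libraries. It rose by 2.63 ± 0.30 (adjusted p = 0.000271) in all 7, on a locus 19.1 times its RefSeq span. OSMR, the oncostatin M receptor, went from 126, 159 and 256 CPM to 459.6, 751 and 900.5 CPM and rose by 1.94 ± 0.19 (adjusted p = 0.000184). LIFR and IL6ST, the receptor chains shared by these cytokines, rose by 1.71 ± 0.20 and 1.41 ± 0.21, and for LIF, OSMR, LIFR and IL6ST no lactating library overlapped a virgin one. SOCS3, a feedback target of STAT3, rose by 1.23 ± 0.25 (adjusted p = 0.00442). STAT3 rose by 0.63 ± 0.17 (adjusted p = 0.0179), a call lost without animal L490 or L615 (adjusted p from 0.000571 to 0.0697 over 19 alternatives). CP (ceruloplasmin), a copper-binding acute phase protein, was at 0.424, 1.21 and 5.42 CPM in virgin and 14.0, 55.6 and 162 CPM in lactating libraries. It rose by 5.11 ± 0.53 (adjusted p = 0.0002) beside 3.18 ± 0.42 in the others. The 2 animals with fewest milk transcripts had its largest changes, 7.23 in animal L478 and 6.64 in animal L538. The rest ran from 3.25 in animal L615 to 5.49 in animal L531, with 5.17 in animal L490, which had most milk transcripts. A relation of CP to the milk share was not tested. LBP, which binds bacterial lipopolysaccharide, rose by 2.89 ± 0.41, and LCN2 (lipocalin 2), which traps bacterial iron carriers, by 2.66 ± 0.46 (adjusted p = 0.00073 and 0.0019). LRP2, an endocytic receptor, was the member that fell, by 2.37 on the log2 scale.

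Interferon-stimulated genes gave 16 rises and 0 falls of 27 tested, with a median of 1.04, and the others 18 rises and 1 fall. With each locus counted once, 15 of 26 rose. The rises were 12 without animal L504 or L538, 13 without L490 or L531, and 13 with 1 fall without L478 and L538. IRF1, an interferon-induced transcription factor, was at 43.9, 61.1 and 74.0 CPM in virgin and 181, 262 and 383 CPM in lactating libraries, and rose by 2.16 ± 0.17 (adjusted p = 9.38e-05) in 7 of 7 pairs. IFIT1, an RNA-binding antiviral protein, rose by 2.73 ± 0.28, and CXCL10, a chemokine for T cells, by 2.62 ± 0.36. OAS2, an antiviral sensor, rose by 2.22 ± 0.23, and its counts and those of OAS1Y were 1 locus listed under both names. Of 28 tested chemokines, receptors and cytokines 16 rose and none fell, with a median of 1.69. CCL2, which draws monocytes, went from 26.6, 72.4 and 189.6 CPM to 389, 575 and 1033 CPM without overlap, and rose by 2.82 ± 0.38 (adjusted p = 0.000585). IL6 rose by 2.74 ± 0.54 and IL1B by 2.80 ± 0.52 (adjusted p = 0.00341 and 0.00281), both inflammatory cytokines. TNF and CCL20, also inflammatory, had changes of 0.01 ± 0.44 and -0.55 ± 0.42 (adjusted p = 0.988 and 0.338) and were called higher in the other animals at 2.12 ± 0.64 and 3.46 ± 0.61. Of 29 immediate early and heat shock genes 8 rose and none fell, with a median of 0.03. Among the rises were FOSL1 (1.00 ± 0.22) and DUSP2 (1.08 ± 0.26), and 5 rose without animal L504 or L538. Without the animal block 7 rose and 2 fell, and without TMM scaling 5 rose and 2 fell. Of 10 MHC class II presentation genes BOLA-DOA and CTSS (2) rose and RFX5 (1) fell, and CTSS lost its call without TMM scaling and without animals L478 and L531 (adjusted p = 0.0736 and 0.0661).

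**Figure D3:**
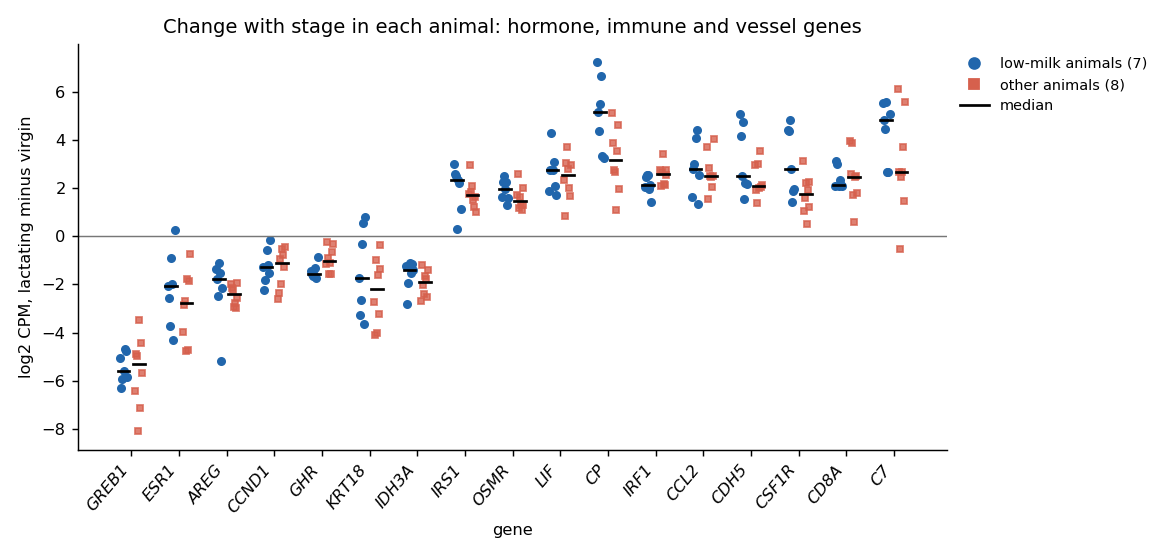
Change of log2 CPM from the virgin to the lactating library in each low-milk animal (blue circles, 7) and each other animal (orange squares, 8) for 17 hormone, immune and vessel genes; black bars are medians. GREB1 and GHR are below 0 and LIF, OSMR, IRF1, CCL2, CDH5, CSF1R and CD8A above 0 in all 15 animals.

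Markers of cells other than epithelium moved with stage beside the immune genes above. In bulk RNA, fewer or more cells of a type cannot be told apart from less or more RNA per cell. Of 16 endothelial markers 15 rose and none fell, with a median of 2.53. Their summed level, on a scale normalised over all animals, was 36.2 to 221 CPM in virgin and 302 to 831 CPM in lactating libraries, and 167 to 892 and 1043 to 2105 CPM in the other animals. CDH5, the cadherin of vessel walls, was at 1.31, 14.1 and 22.5 CPM in virgin and 41.9, 94.5 and 159 CPM in lactating libraries, and rose by 3.17 ± 0.46 (adjusted p = 0.000829) in all 7. DLL4, the endothelial NOTCH ligand, rose by 2.79 ± 0.36 and NOTCH4, an endothelial receptor, by 2.05 ± 0.31. They belong to the TGF-beta, WNT and NOTCH list, where 13 of 36 rose and 4 fell, 8 rising without the animal block. Its falls were 2 without animal L490, L504 or L615 and 1 without animal L531.

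All 17 tested macrophage and monocyte markers rose, with a median of 2.87 against 1.41 in the other animals, where 15 rose. Their summed level was 36.5 to 97.0 CPM in virgin and 174 to 458 CPM in lactating libraries of the 7 animals. In the other animals it was 50.5 to 130 CPM in virgin and 255 to 675 CPM in lactating libraries. The median lactating sum was thus lower here, at 211 against 383 CPM. CSF1R, the receptor that macrophages need to survive, was at 0.656, 1.41 and 5.10 CPM in virgin and 10.0, 15.1 and 22.3 CPM in lactating libraries, and rose by 3.08 ± 0.47 (adjusted p = 0.00109). MRC1, a mannose receptor, and TREM2, a lipid-sensing receptor, rose by 3.08 ± 0.45 and 3.24 ± 0.43, against 1.83 ± 0.33 and 2.02 ± 0.50. Of 14 lymphocyte markers 12 rose and none fell, with a median of 2.09. CD8A, the coreceptor of cytotoxic T cells, was at 0.141, 0.219 and 0.401 CPM in virgin and 0.768, 1.58 and 2.54 CPM in lactating libraries, and rose by 2.64 ± 0.27 (adjusted p = 0.000195). Of 6 plasma cell markers 3 rose and 1, DERL3, fell, the latter a call lost without animal L504 (adjusted p = 0.051). JCHAIN, which joins secreted antibodies, rose by 4.33 ± 0.74 (adjusted p = 0.0018), a call lost without the animal block (adjusted p from 8.54e-10 to 0.0565 over 19 alternatives). None of the tested markers of these 4 lists was at 0 in all libraries of a stage.

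**Figure D4:**
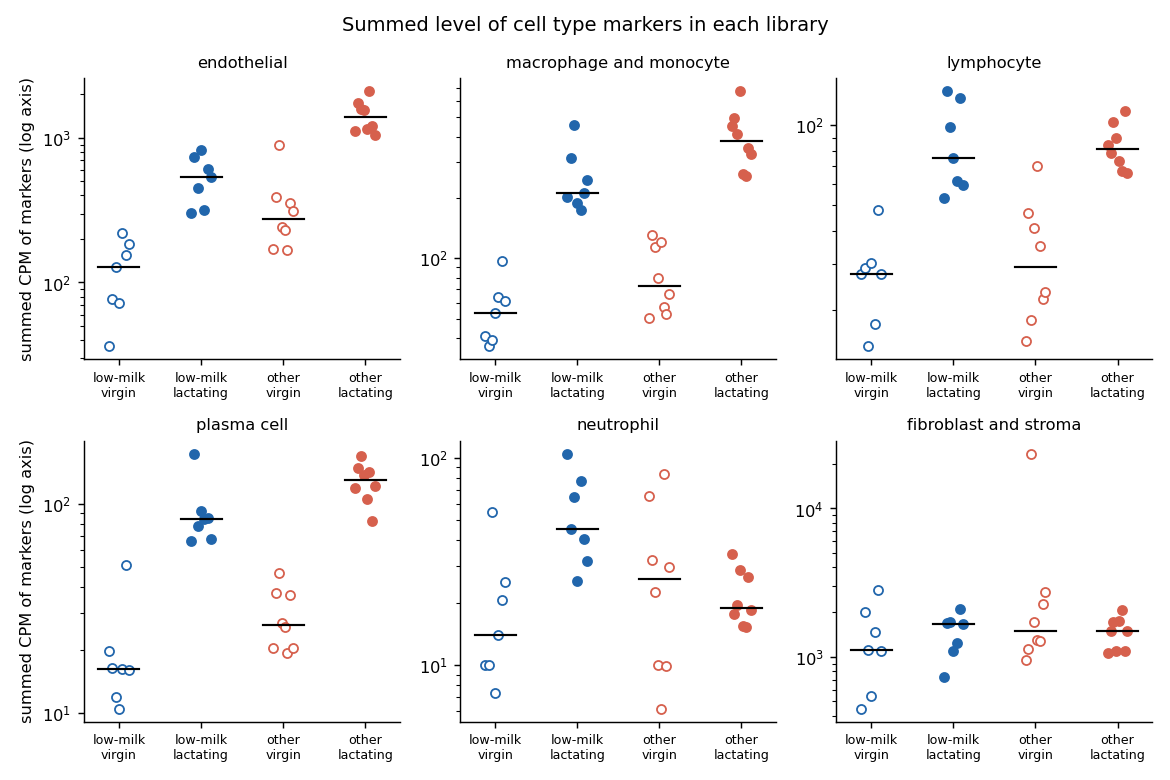
Summed CPM of the tested markers of 6 cell types (log axes) in each virgin (open) and lactating (filled) library of the 7 low-milk (blue) and 8 other (orange) animals; bars are medians. Endothelial and macrophage sums of the low-milk animals do not overlap between stages, whereas fibroblast sums do.

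Neutrophil markers gave 4 rises of 8 tested. CXCR2, the receptor for neutrophil chemokines, was at 0.437, 0.789 and 9.98 CPM in virgin and 4.61, 18.7 and 48.7 CPM in lactating libraries. It rose by 3.32 ± 0.60 (adjusted p = 0.00234) in 7 of 7 pairs and changed by 0.73 ± 0.54 (adjusted p = 0.303) in the other animals, 4 of 8 upward. S100A8 and S100A9, defining genes of the same cells, did not pass. Of 16 fibroblast and stroma markers 10 rose and 2 fell, with a median of 0.96, while 2 rose and 3 fell in the others with a median of 0.08. Without the animal block 5 rose and 1 fell, and the summed levels overlapped between stages, at 444 to 2827 CPM in virgin and 727 to 2085 CPM in lactating libraries. C7, a complement component, went from 0.367, 1.31 and 6.05 CPM to 18.7, 30.2 and 38.8 CPM and rose by 4.41 ± 0.44 (adjusted p = 0.000195), and LUM (lumican), a matrix proteoglycan, rose by 2.21 ± 0.43. POSTN (periostin), another matrix protein, fell by 1.86 on the log2 scale, and COL1A1, the main fibrillar collagen, did not pass at 0.87 ± 0.49. Pericyte and smooth muscle markers gave 5 rises of 10, adipocyte markers 3 of 9 and nerve markers 2 rises (S100B and SOX10) and 2 falls (NGFR among them, a call lost in 1 fit over all animals) of 6. Erythroid markers were not analysed here. FABP4, which adipocytes and capillary endothelium use, was the strongest of the adipocyte genes at 5.36 ± 0.67, while PLIN1 and PPARG did not pass. ADIPOQ, another of the adipocyte rises (0.995, adjusted p = 0.0323), lost its call under 8 of 19 alternatives. The part of any of these cell types in the other changes was not tested.

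**Figure D5:**
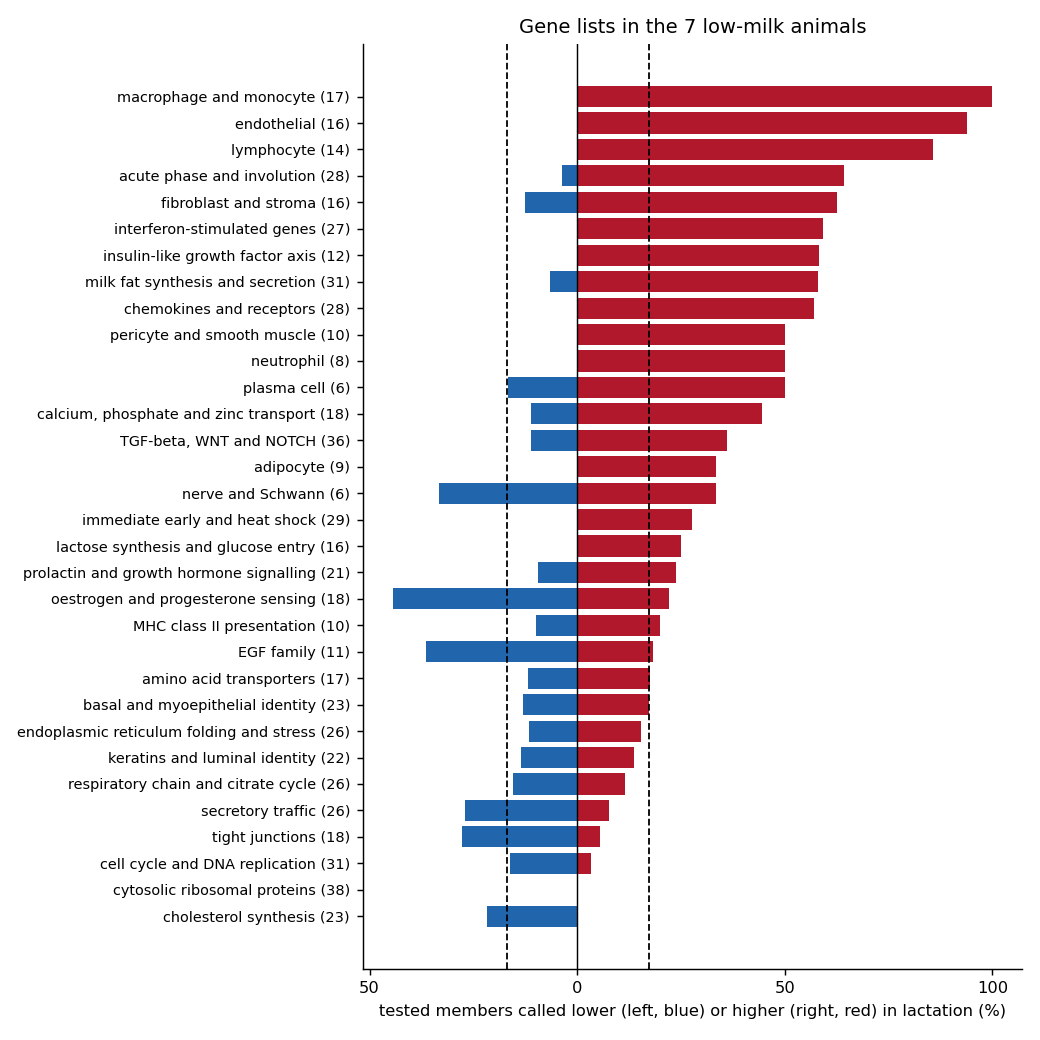
Percent of tested members (number in brackets) of each gene list called lower (blue, left) or higher (red, right) in lactation in the 7 low-milk animals, without the milk protein list; dashed lines are the shares over all rows, 16.8% lower and 17.4% higher. Macrophage, endothelial and lymphocyte markers have the highest shares upward, and oestrogen and progesterone sensing the highest downward.

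Most calls were shared with the 8 other animals, with which no library was shared. Of 2268 rows called higher here and tested in both sets, 1751 (77.2%) were called higher in the others, which were 62.4% of the others' 2807. Of 2147 called lower here, 1517 (70.7%) were called lower there, 57.1% of the others' 2655. Rows called higher in the others had the same sign here in 95.2% of cases, and those called lower in 94.2%. Opposite calls numbered 7 rows higher here and lower there, and 5 the other way. Among the former was MXRA5, a matrix remodelling gene (1.07 ± 0.24 here and -0.92 ± 0.27 there), whose call was lost without the animal block (adjusted p from 0.000101 to 0.153 over 19 alternatives). The latter were ACACA, GRAMD1B, NELL2 and the histone rows HIST1H1D and H2B.

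As a description of the animals chosen, the differences of change between the 2 sets were also ranked. For 9 of the rows tested, every low-milk animal's change lay above the range of the other 8, and for 71 below it. SLC2A1 and IL1R1, the receptor of interleukin 1, which shares its locus with IL1R2, were above: IL1R1 changed by 1.46 ± 0.16 against 0.65 ± 0.14. FASN, LPIN1, DNAJC12 (a co-chaperone), SLC31A2 (a copper transporter) and LPO were below. DNAJC12 was at 5.70, 9.10 and 23.1 CPM in virgin and 6.40, 16.7 and 27.4 CPM in lactating libraries and changed by 0.52 ± 0.34 (adjusted p = 0.264), against 4.35 ± 0.28. SLC31A2 rose by 1.11 ± 0.20 against 3.91 ± 0.24.

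The 7 animals were not alike. Over the milk protein list the median change was 2.21 in animal L538 and 2.87 in animal L478, and 4.89 to 6.39 in the other 5. That list includes the 6 rule genes, so this order partly restates the milk share by which the animals were chosen. Over endothelial markers animal L538 had the smallest median, 0.35, while animal L478 had 3.96 and animal L531 had 4.19. Over interferon-stimulated genes animals L581 and L478 had 0.23 and 0.36, and the other 5 had 1.02 to 1.77. Animal L581 also had the smallest median over chemokines and receptors, 0.48, where the other 6 had 1.54 to 2.70. Over cytosolic ribosomal proteins animal L581 had -1.43, and the other 6 lay between -0.45 and 0.25.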

How the data were processed

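The authors deposited read counts per gene, whole numbers that were not normalized. A second table deposited by the authors holds RPKM values, log2 fold changes and adjusted p-values over all animals; the RPKM values served here only to recover locus lengths, and of 2764 rows with an adjusted p under 0.05 in the authors' deposited table, 2507 were called the same way here, on partly the same libraries. Build UMD3.1, StringTie 1.3.2, HISAT2 2.0, featureCounts 1.5.2 (Subread), SAMtools and edgeR are named, per the submitters' processing notes, with settings not given in the sources used here. The libraries were strand-specific, per the labels' protocols.

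The table has 14084 rows but 13407 distinct loci, since a locus can be listed under several names; the mitochondrial locus fills 7 rows. Of 11866 tested rows with a RefSeq span, 1021 had a locus over 2 times that span, so neighbouring genes may be joined. A symbol on several rows was taken from the row with most counts. With each locus counted once, the totals were 21723135 to 45478555 in lactating and 14656724 to 28289799 in virgin libraries of the 7 animals. Every pair of libraries within a stage differed beyond sampling noise, with a chi-square per degree of freedom of at least 37.0 (virgin) and 66.5 (lactating).

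Counts were analysed with edgeR 4.0.16 in R 4.3.3: filterByExpr (minimum count 10, total 15), TMM, robust glmQLFit with stage and animal, glmQLFTest, and glmTreat against a log2 fold change of 1, with Benjamini-Hochberg adjustment over all rows tested. The animal number pairs the libraries, per the series design; after removal of stage means, libraries of 1 animal correlated at 0.147 to 0.42, over 0.1 in 7 of 7 pairs. Single animals' changes are differences of log2 CPM with a prior count of 2. Those printed for the low-milk animals were scaled over their own libraries, and those of the other animals over all animals with both stages. Rows counted as outside the range of the other animals were judged with both sets on the latter scale. SE is the log2 fold change over the square root of F. On simulated data for this comparison (13143 rows) 2 of 50 rows changed 1.5-fold, 31 of 50 changed 2-fold, 46 of 50 changed 4-fold and 50 of 50 changed 8-fold were recovered, and 5 of 134 calls (3.73%) were false.

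Alternatives were the fit without the animal block, without TMM, with DESeq2 1.42.0 or its size factors, other filters, each locus once, 1 fit over all animals, and single animals left out. The members and lists were chosen with earlier results of these data known. The text names the 12 steepest rises and 12 steepest falls among called rows that have a symbol, average 3 or more in log2 CPM, hold 10 counts in every library of the higher stage and move 1 way in all 7 pairs, the 6 rule genes, 4 members per list by smallest p, the called member against a list's direction, 15 set receptors, regulators and keratins, and up to 8 genes each way with the largest difference from the other animals. Chosen after their values were seen were ACACA, SCD, GPAM, AGPAT1, ACSS2, FADS1, ELOVL1, SLC2A8, SLC5A1, RERG, CXCL12, XDH, LPL, CD36, SREBF1, HMGCS1, B4GALT1, PIGR, ATP2A2, STAT3, SOCS3, IL6ST, LBP, LCN2, IL6, IL1B, CCL20, TNF, CXCL10, TOP2A, MYB, MRC1, CSF1R and COL1A1, besides genes named only to spell out a count of 5 or fewer or a defining marker that did not pass. Some genes are not reported here.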

Additional observations from a re-analysis of the deposited data

Results flagged for a closer look

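Among 88 groups of 7 libraries checked for a library far from the other 6, 5 were found, and chance alone gives about 1 in 20. In lactating libraries, ELF5 was at 46.0 CPM in L538 and at 127 to 233 CPM in the others. TOP2A was at 8.22 CPM in L490, against 1.54 to 2.85 CPM. The summed level of plasma cell markers was 190 CPM in L490 on the scale of these 14 libraries, against 73.3 to 99.9 CPM. Among virgin libraries, SLC2A1 was at 1020 CPM in V478, against 337 to 542 CPM, and the plasma cell sum was 56 CPM in V581, against 11.2 to 21.4 CPM. L495, the lactating library with no virgin partner and outside all comparisons, had a milk transcript share of 26.5%, where no virgin library exceeded 0.44%.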

How the results depend on the processing

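The median of 9 gene lists, whose main medians lay within 0.23 of 0, changed sign under some alternative, for instance basal and myoepithelial identity from 0.06 to -0.22 with no replicate block. With no replicate block, 1915 rows were higher and 2250 lower, 451 and 158 over 2-fold. Without TMM scaling 1646 were higher and 3004 lower, so that in both settings falls outnumbered rises, unlike the fit as reported. Leaving out each animal in turn gave 1816 to 2399 rows higher, 1532 to 2393 lower, 364 to 684 over 2-fold higher and 82 to 161 over 2-fold lower. Without the animals whose virgin titles carry a letter (L478 and L531), the counts were 1499, 1140, 277 and 87. Membership by the share with each locus once drops animal L490, so it repeats the fit without that animal, with 364 over 2-fold higher. That fit is therefore counted more than once among the alternatives and in the calls lost or gained below. Without animals L478 and L538, chosen after seeing the data, 1330 rows were lower. Without TMM scaling the other animals had 1070 rows higher and 8122 lower, with a median log2 fold change of -0.78. The causes were not tested, beyond there being fewer samples where animals were left out. Of 170 called genes among the 215 named by rule or choice, 141 kept their call in every alternative, and of 4064 pairs of gene and alternative 110 lost a call, 39 gained one and 0 reversed. CSN1S2, a rule gene with no test, had a fitted value of 8.47 without the block and 14.62 with it. In the simulated data, with 134 rows called against 4514 here, most 1.5-fold changes were missed, and that rate may not carry over. Genes under a few CPM rest on few reads.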
